A study of Mus musculus with 7 samples.

Results

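The regions described here are 221 sites of open chromatin on the mouse X chromosome that were read from both parental X chromosomes in wild-type neural progenitor cells (NPC). They were chosen from the 1434 chrX sites of the authors' IDR list of ATAC-seq peaks for that line (irreproducible discovery rate under 0.05). Of these, 833 carried at least 10 reads that could be given to an allele, and the members are the sites in which each allele held at least 20% of those reads. The other 612 usable chrX sites serve as the comparison within the same cells, and the whole list holds 41126 sites. Positions below are on chrX of the mouse build mm9, and the sites carry no gene names because no annotation of that build was used here. Since the allelic reads of wild-type NPC chose the members, their allelic shares in that line are a description and were not tested.

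ATAC-seq inserts sequencing adapters into accessible DNA with the Tn5 transposase. The study compared 7 samples, 1 per group: NPC of the line sgdgb2 with the deltaFT deletion (the labels do not say what it removes), wild-type NPC of the line C2, and wild-type embryonic stem cells (mESC) of the line F1216, all female and from a 129S1 x Cast:EiJ F1 cross, and 4 samples of male J1 mESC (TXY) that carry an inducible Xist on their X. The TXY samples were deltaRepA cells, whose Xist lacks the A repeat, with 2 ug/mL doxycycline for 48 hours and untreated, and TXY WT cells with an intact Xist, treated and untreated in the same way. The NPC grew in N2/B27 medium with FGF and EGF and the female mESC in serum with LIF; each NPC group is 1 line, so differences between lines and differences due to a deletion cannot be told apart. The source label of the mESC sample names neural progenitors, and the descriptions of both treated TXY samples name an untreated file; the titles were followed.

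In female mammals one X is inactivated during differentiation. The Xist RNA spreads over it, most of its genes are silenced and most of its regulatory sites close. A minority of genes escape silencing and keep open promoters on the inactive X, and in mouse some escape in nearly all cells whereas others do so only in certain lines or tissues. In mESC both X chromosomes are active.

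The lists held 11085592 reads in peaks for deltaFT NPC, 11014387 for wild-type NPC and 6490181 for mESC. On chrX the deposited lists of library 1 and library 2 were the same in both NPC lines, with 6657 identical rows in deltaFT and 7114 in wild type. Thus chrX has no second library to check against, and these lists cannot show that its IDR sites are reproducible. On the 19 autosomes of wild-type NPC, 94.6% of 33065 usable sites met the same allelic rule, against 26.5% on chrX. No strain is named for the allele columns, which are referred to by their order as first-listed and second-listed. The labels do not say if these reads come from a single library. The first-listed X is the closed one in most of the 612 other sites: 604 of them had under 20% first-allele reads, 305 had none, and their pooled first-allele share was 4.27%.

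The members carried most of what was read from the first-listed X. They held 13965 of its reads, or 88.5% of those in all usable chrX sites, but 30.4% of the reads of the second-listed X. Their own pooled first-allele share was 44.0%, the median site stood at 41.8%, and the quartiles were 30.8% and 51.7%. On the autosomes the median was 50.5%.

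The limits divide a continuous range. Shares of 20 to 30% were seen in 51 members, 30 to 40% in 50, 40 to 50% in 52, 50 to 60% in 47, 60 to 70% in 16 and above 70% in 5. At the lower limit 3 members stood at exactly 20%: the site at 6952889 to 6953624 with 3 first-allele and 12 second-allele reads, that at 100569680 to 100569829 with 4 and 16, and that at 133494336 to 133494537 with 3 and 12. Just outside were sites at 133275743 to 133276419 (19.9%), 71360836 to 71361236 (8 and 34 reads) and 163243410 to 163243823 (15 and 64 reads). At the upper end the highest members had 76.1%, 75% and 75%, and the next sites, outside the limit, had 85.7%, 95% and 96.0%. The upper limit falls in a gap, while the lower one does not. For 140 members the whole exact 95% binomial interval lay between 20% and 80%, and 35 members rested on fewer than 20 allelic reads.

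**Figure D1:**
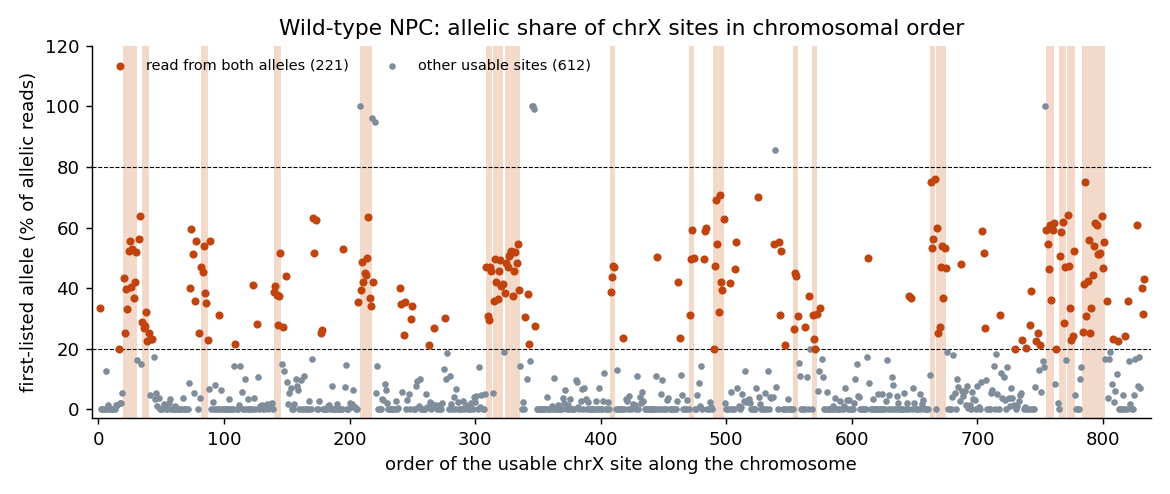
Share of allelic reads from the first-listed allele (y axis, percent) at each of the 833 usable chrX sites of wild-type NPC, placed by their order along the chromosome (x axis). Orange points are the 221 sites read from both alleles, grey points the 612 others, dashed lines the limits of 20% and 80%, and shaded bands the 19 runs of at least 4 consecutive members; members stand in groups between long stretches near 0%.

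The members had more reads than the other sites, and they differed from them on the first-listed allele. Their median was 276 reads against 138 in the other sites, and per 100 bp of peak it was 62.6 against 36.8, with 45.3 on the autosomes. The median of second-allele reads was 41 in the members and 40 in the others, while that of first-allele reads was 26 and 1. The members were about as wide, with a median of 425 bp against 395 bp. An IDR list is drawn from library lists, so it says nothing about strength that all 221 members and all 612 other sites overlapped a library 1 peak. In that list the deposited −log10 p had a median of 19.5 in the members and 14.4 in the others. Since read number and allelic share come from the same reads, these values describe the choice and were not tested.

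**Figure D2:**
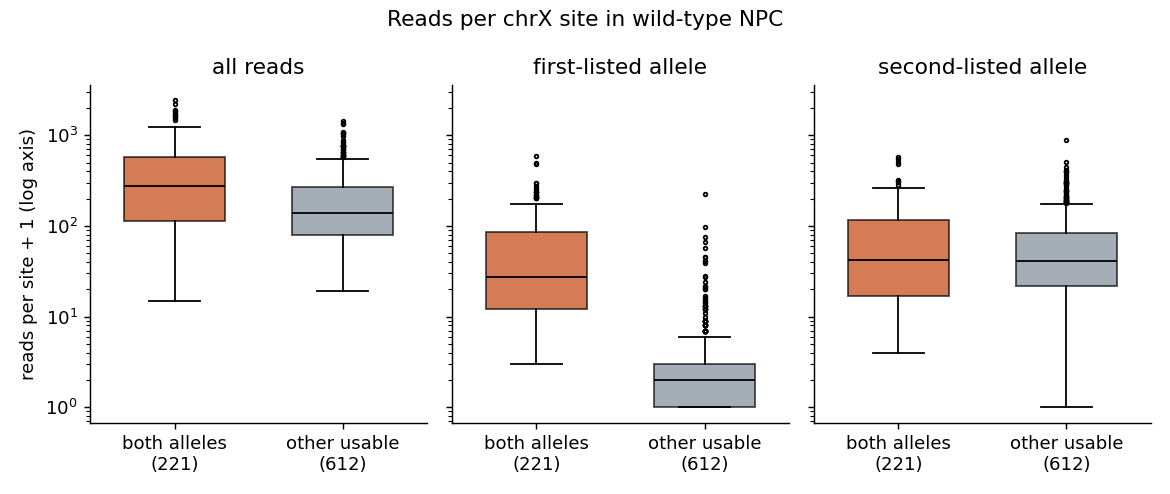
Reads per site plus 1 (log axis) in wild-type NPC for the 221 sites read from both alleles, left, and the 612 other usable chrX sites, right, as all reads, first-listed allele and second-listed allele. Boxes give the median and quartiles, whiskers reach 1.5 times the box height and points lie beyond; the medians of the second-listed allele are 41 and 40 reads, those of the first-listed allele 26 and 1.

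The 12 members with most allelic reads had more than 400 each. The site with most, at 160857303 to 160858188, had 595 reads of the first-listed and 545 of the second-listed allele, and that at 160346383 to 160347361 had 495 and 484. At 165757895 to 165758787 there were 487 and 313, and at 160395768 to 160397111 there were 300 and 184. The first-listed X had the larger read number at these 4 sites. The reverse held at 146912332 to 146913257, with 294 first-allele and 506 second-allele reads, at 91422949 to 91423654, with 202 and 321, and at 72919135 to 72920004, where 158 stood against 574. The site at 72919135 had the most reads of any member, 2431. The other 5 of these 12, at 99314267 to 99314968, 160513980 to 160514702, 99352106 to 99352847, 148776850 to 148777499 and 45609607 to 45610247, had first-allele shares of 46.6% to 59.0%.

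Members lay next to members. Of the usable sites next to a member, 64.5% were members, whereas of those next to another site 12.7% were. Without neighbours closer than 10 kb the values were 57.1% and 12.5%. From one member to the next the median gap was 36.2 kb, and 145 of 220 such gaps were at most 100 kb. The 221 members formed 79 stretches uninterrupted by another usable site: 41 single sites, 19 stretches of 2 or 3 sites with 44 members, and 19 runs of at least 4 with 136 members. The runs covered 3999 kb, or 2.45% of the chromosome between the outermost chrX sites, and held 61.5% of the members. A further 32 sites inside the runs had too few allelic reads to be classed.

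The members were uneven along the chromosome. In windows of 10 Mb they made up 54.9% of the 71 usable sites beyond 160 Mb, 40.8% of 71 between 70 and 80 Mb and 40.4% of 57 in the first 10 Mb. Between 60 and 70 Mb the share was 6.25% of 32 sites, and between 80 and 90 Mb none of 23 was a member. Of the run members, 29 lay beyond 160 Mb and 25 between 70 and 80 Mb.

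The longest run held 18 members over 363 kb, at 162585429 to 162948699, with a pooled first-allele share of 51.1% (95% interval 49.1% to 53.2%). Its member with most allelic reads, at 162878237 to 162879019, had 216 and 204 reads. Next came a run of 12 sites at 71491688 to 71675109 (47.3%), led by 71542110 to 71542825 with 147 and 140 reads, and one of 11 at 7274074 to 7476984 (41.5%), led by 7475960 to 7476984 with 213 and 197. A site said to lead a run is its member with most allelic reads, not with most reads.

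A pair of runs lay just before the one of 12 sites. One of 8 sites lay at 71160189 to 71331364 (43.3%), with 164 and 232 reads at the site with most allelic reads, 71330853 to 71331364. The other had 5 sites at 70899612 to 71032583 (44.6%), led by 70961420 to 70962123 with 129 and 146. Between 70 and 72 Mb 25 of 37 usable sites were members. The end of the chromosome held 3 more runs: 7 sites at 159197813 to 159388043 (56.1%, led by 159325790 to 159326454 with 249 and 161), 5 at 160346383 to 160443062 (51.9%) and 6 at 160504216 to 160858188 (46.9%). Beyond 159 Mb 46 of 82 usable sites were members.

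Another pair stood at 148237455 to 148451649 with 4 sites and at 148586374 to 148777499 with 8. The first of them had the highest pooled share of all runs, 59.8% (55.2% to 64.3%), led by 148450426 to 148451098 with 204 and 159 reads. In the second the share was 45.5%. A pair of runs of 9 sites lay at 47925754 to 47965725 (42.6%) and at 100569680 to 100818045 (44.7%), led by 47965442 to 47965725 with 123 and 238 reads and by 100812120 to 100812778 with 111 and 170. In the run near 48 Mb the 9 sites were packed into 39.97 kb, the densest of the runs with more than 4 sites.

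The other runs were shorter or weaker. Those of 6 sites lay at 7651238 to 7753460 (25.3%, the lowest of all runs), 12647681 to 12808144 (35.4%) and 20194127 to 20348401 (39.2%), with 66 and 229, 57 and 193, and 34 and 54 reads at the sites with most allelic reads, 7722273 to 7723228, 12807731 to 12808144 and 20194127 to 20194551. Runs of 4 lay at 91422949 to 91459060 (40.2%), 98681754 to 98967680 (50.1%, led by 98727756 to 98728483 with 157 and 160), 131645518 to 132293776 (40.4%, led by 132277076 to 132277902 with 67 and 82) and 133290043 to 133513467 (27.4%, led by 133513244 to 133513467 with 12 and 26). Over the 19 runs the pooled share ranged from 25.3% to 59.8%.

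Sites within a run varied in their shares, which ranged from 20% to 70.6% in the run at 100569680 and from 23.0% to 64.0% in that at 160504216. Of the 38 flanks, taken on each side of every run, 35 had under 20% first-allele reads, 15 of them under 5%, and 3 had over 80%. A usable site that flanks neighbouring runs was counted for each of them. A flank is a non-member by definition, so its share had to lie outside the limits. The nearest flanking site lay 2.41 kb from its run, next to the run near 48 Mb. At 47968137 to 47968384 it was read 97 times from the first-listed and 4 times from the second-listed allele, and the flank on the other side, at 47919697 to 47919818, had 44 and 0. These flanks were read almost wholly from the first-listed X, which most other chrX sites lacked.

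Single members were weaker than run members. Their median was 91 reads against 308.5, their median share 30.3% against 45.4%, and 11 of 41 rested on fewer than 20 allelic reads against 18 of 136.

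The first comparison asked whether the sites were already open before inactivation, in mESC. Of the 221 members, 127 (57.5%, 95% interval 50.7% to 64.1%) had a peak in the reproducible (IDR) list of mESC, against 232 (37.9%, 34.0% to 41.9%) of the 612 others. The difference was 19.6 points (11.9 to 26.9). When the others were weighted to the members' read numbers it was 3.62 points. A further 51 members overlapped a peak of the mESC library lists only and 43 (19.5%) none, where 52.2% of all wild-type NPC sites overlapped none.

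In mESC nearly all sites that could be classed were read from both alleles. Of the 117 members with a peak of their own and enough allelic reads there, 115 were read from both alleles (98.3%, 94.0% to 99.8%), as were 209 of 216 others (96.8%). The median first-allele share of the members was 42.4% in wild-type NPC and 50% in mESC, and that of the others 1.72% and 49.3%. The 2 exceptions were 102274742 to 102275436, with 26 first-allele and 21 second-allele reads in NPC and 33 and 3 in mESC, and 130811176 to 130811759, with 11 and 10 in NPC and 23 and 5 in mESC. Pooled by run, the mESC share ranged from 23.1%, on 13 reads at 133290043, to 57.3%. Over all sites of the run in NPC and the matched sites in mESC, the run at 7651238 had 25.3% and 46.7%. That at 133290043 had 27.4% and 23.1%, and that at 47925754 had 42.6% and 38.1%, the last on 412 mESC reads. The matched sites were 4 of 6, 1 of 4 and 2 of 9. At the 1 matched site of the run at 133290043, NPC also had 23.1%. At the 2 matched sites of the run at 47925754, NPC had 42.0% and 36.8%, and mESC 30.5% and 43.7%.

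Reads per bp were compared between wild-type NPC and mESC in matched sites, as log2 ratios relative to the median of 10286 autosomal sites. In the members the median was 0.13 (quartiles -0.22 and 0.44) for all reads, -0.15 for the first-listed and 0.25 for the second-listed allele. In the others it was -0.57, -4.98 and 0.30. The second-listed allele had close medians in both classes, and the classes parted on the first-listed allele, which the rule had used.

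The longest run held the members with most reads that mESC lacked. The 5 with most reads in no mESC list all lay there: 162611734 to 162612215 with 845 reads, 162709415 to 162709887 with 680, 162935772 to 162936134 with 440, 162678725 to 162679182 with 424 and 162803510 to 162804127 with 416. Of the 18 sites of this run 5 had an mESC IDR peak, while 9 of 11 did in the run at 7274074 and 7 of 8 in that at 71160189. Other runs also had few: 2 of 9 at 100569680, 3 of 9 at 47925754 and 1 of 4 at 133290043. The first 2 of the 5 listed sites had 12 allelic reads each, so their shares of 75% and 33.3% are loose.

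The comparison of the NPC lines asked what became of these sites with the deltaFT deletion. Most still had a peak, and most of those that could be read by allele had under 20% first-allele reads. All 221 members are accounted for: 34 were read from both alleles in deltaFT, 34 had 5 to 20% first-allele reads, 68 under 5%, and 1 over 80%. Of the rest, 6 had too few allelic reads, 4 shared a deltaFT peak with a neighbour, 61 overlapped a peak of the library lists only, and 13 (5.88%) overlapped none, where 10.8% of all wild-type NPC sites overlapped none. The 13 were weak, with a median of 68 reads in wild type. The 5 of them with most reads lay at 162717459 to 162718135 with 318 reads, 100746613 to 100747048 with 296, 47930099 to 47930367 with 127, 20397268 to 20397482 with 122 and 71670618 to 71670834 with 112. The share with a deltaFT IDR peak, 66.5% (59.9% to 72.7%), was close to the 63.7% of the other chrX sites and the 68.0% of usable autosomal sites; at equal read numbers it stood -8.71 points from the other chrX sites.

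**Figure D3:**
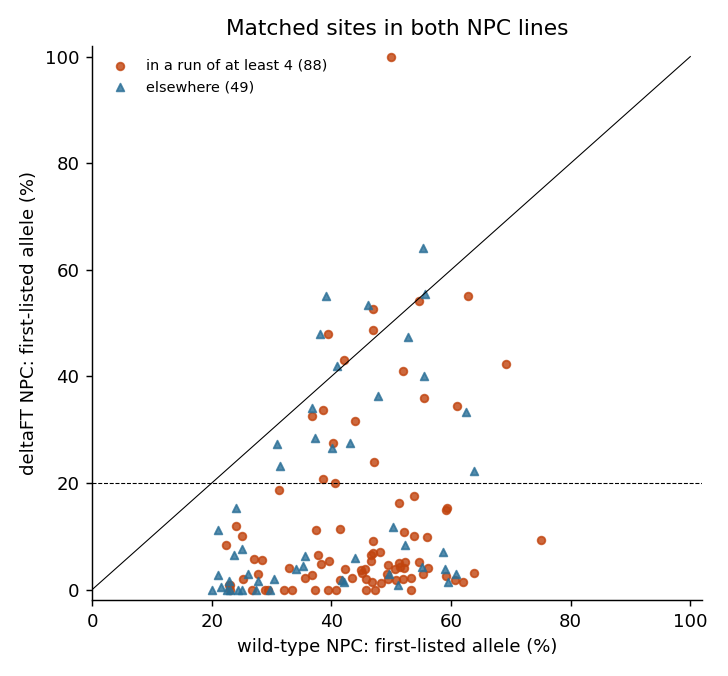
Share of allelic reads from the first-listed allele in deltaFT NPC (y axis, percent) against wild-type NPC (x axis, percent) for the 137 members matched in both lines; circles are members of runs, triangles the others, the solid line marks equal shares and the dashed line 20%. Most points lie under 20% in deltaFT, and 34 lie between 20% and 80%.

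In the matched members the allele with fewer reads in deltaFT was the first-listed one, whose wild-type share the rule had used. In the 137 matched members the log2 ratio of reads per bp, deltaFT over wild type and relative to 21433 autosomal sites, had a median of -3.35 (quartiles -4.67 and -1.34) for the first-listed allele and 0.03 (-0.32 and 0.37) for the second-listed allele. All reads together stood at -0.60. The pooled first-allele share was 15.0% in deltaFT and 44.7% in wild type, and 34 of 137 members (24.8%, 17.8% to 32.9%) against 14 of 362 others (3.87%) were read from both alleles in deltaFT. In 362 other chrX sites the medians were 0.48, -0.14 and -0.06, where the first value rests on a few reads per site. By deltaFT class, which these same reads define, the 34 members read from both alleles stood at -0.27 for the first-listed allele, and the 68 with under 5% at -4.74. In 88 of the 137 members (64.2%) the deltaFT interval of the share lay below that of wild type and in 1 above, where 6.68% and 3.79% of all matched sites did. The members were chosen by their wild-type shares, so nothing is read from this count. That choice also favours a fall of their first-allele ratio and pooled share in deltaFT, so these values are a description. Among 76 chrX sites chosen by the same rule in deltaFT, 48 were matched, and 34 of these met the rule in wild type also.

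The site at 160513980 to 160514702 was read 0 times from the first-listed and 191 times from the second-listed allele in deltaFT, against 234 and 260 in wild type. That at 160395768 to 160397111 had 2 and 138 in deltaFT, against 300 and 184 in wild type. At 160819904 to 160820495 there were 3 and 313 in deltaFT, against 54 and 181 in wild type. The second-listed allele was present at all 3 sites in both lines. At 148450426 to 148451098 the reads were 12 and 285 in deltaFT, against 204 and 159 in wild type, and at 71160189 to 71160729 they were 6 and 277, against 109 and 197. Several of the members with most allelic reads in wild type also had under 5% in deltaFT. At 160857303 there were 17 and 404 in deltaFT, against 595 and 545 in wild type, and at 160346383 there were 21 and 534, against 495 and 484. At 165757895 there were 10 and 335, against 487 and 313, and at 72919135 there were 2 and 471, against 158 and 574.

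Other sites kept both alleles. At 12857583 to 12858300 there were 263 first-allele and 211 second-allele reads in deltaFT, against 109 and 87 in wild type. At 17739048 to 17740016 there were 199 and 276 in deltaFT, against 172 and 249 in wild type. At 166424511 to 166425214 there were 147 and 405 in deltaFT, against 159 and 238 in wild type, a share of 26.6% (23.0% to 30.5%) next to 40.1% (35.2% to 45.1%). The first 2 sites had near-equal shares in the lines, and the last had a lower one in deltaFT. Its neighbour at 166429040 to 166429492 had 86 and 286 in deltaFT and 61 and 133 in wild type, and was uneven in mESC also, with 53 and 191. Of the 12 members with most allelic reads in wild type, those at 146912332 and 45609607 kept both alleles outside runs, with 240 and 463 in deltaFT against 294 and 506 in wild type, and with 214 and 238 against 233 and 208.

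The runs differed in what became of them. Over the same sites, the pooled deltaFT interval lay below that of wild type in 15 of 19 runs and above it in 1. The runs were defined by wild-type shares, which favours a lower share in deltaFT, so nothing is read from this count. In 14 runs the pooled deltaFT share was under 10%. The runs at 71160189 and 71491688 fell to 2.37% and 3.36% in deltaFT, against 43.7% and 47.2% in wild type. The longest run fell to 6.93% in deltaFT, against 52.8% in wild type, and that at 160504216 to 2.41%, against 46.3%. In these 4 runs, deltaFT was read almost wholly from the second-listed X.

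In 2 runs the shares of the lines overlapped at a high level. In the run at 100569680 all 5 matched members were read from both alleles, with 48.1% (44.6% to 51.7%) in deltaFT and 46.1% in wild type. Its site at 100758779 to 100759438 had 85 and 112 reads in deltaFT, against 85 and 117 in wild type, and that at 100812120 had 174 and 189, against 111 and 170. In the run at 91422949 the share was 35.7% (31.9% to 39.7%) in deltaFT and 39.7% in wild type over 2 matched members. In mESC 2 of the 9 sites at 100569680 had an IDR peak. At 133290043 the intervals overlapped on 30 deltaFT reads, too few to tell.

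The run at 7274074 was split. Its first 5 members had 3 first-allele and 133 second-allele, 10 and 90, 6 and 104, 9 and 218, and 1 and 18 reads in deltaFT, while in wild type they ranged from 25% to 52.4% first-allele reads. Of the 6 members from 7418203 on, 4 could be classed and were read from both alleles in deltaFT. Those at 7455183 and 7461315 could not be classed, since 7455183 had 9 allelic reads in deltaFT and 7461315 no peak of its own. That at 7418666 to 7419275 had 24 and 63 reads in deltaFT and 25 and 37 in wild type, that at 7460892 to 7461243 had 77 and 159 against 95 and 163, and that at 7475960 to 7476984 had 150 and 216 against 213 and 197. The pooled 22.1% of this run in deltaFT pools these unlike parts. Together with the runs at 91422949 and 100569680 it held 11 of the 17 run members that were read from both alleles in deltaFT. In all other runs 6 of 72 were. The 3 runs were grouped by these same deltaFT shares, so nothing is read from the contrast.

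The run at 47925754 could not be followed. Of its 9 sites 1 had a deltaFT IDR peak, at 47956140 to 47956395, with 22 first-allele and 0 second-allele reads against 19 and 19 in wild type; 7 others overlapped a library peak alone and 1 none. In mESC 3 of its sites had an IDR peak. The site at 47956140 was the only matched member with over 80% first-allele reads in deltaFT.

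**Figure D4:**
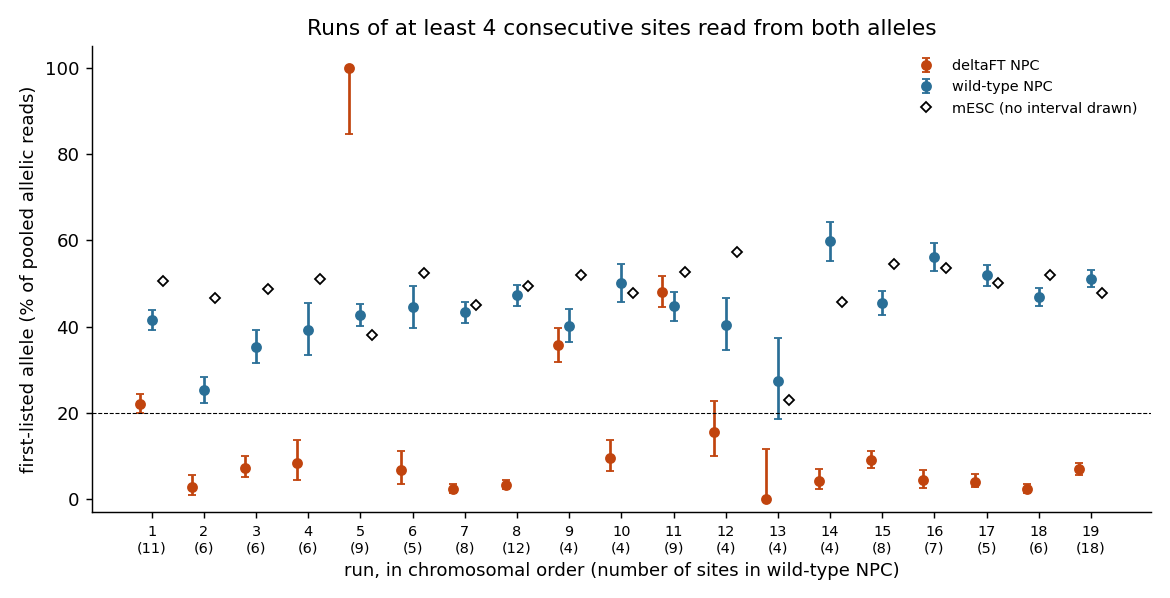
Pooled share of allelic reads from the first-listed allele (y axis, percent) in the 19 runs, in chromosomal order (x axis, number of sites in brackets), in deltaFT NPC over the matched sites, in wild-type NPC over all sites of the run and in mESC over the matched sites. Bars are exact 95% binomial intervals that cover counting error only; the deltaFT shares lie under 10% in 14 runs, close to wild type in runs 9 and 11, and at 100% on 22 reads in run 5.

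The TXY lists were used to ask whether the sites are open in male mESC with a single X, and whether they stay so when Xist is induced. Members were found more often than the other chrX sites in every list. They numbered 149 (67.4%) against 45.8% of the others in deltaRepA with dox, 143 (64.7%) against 45.3% in deltaRepA without dox, 132 (59.7%) against 40.4% in wild type with dox and 159 (71.9%) against 47.4% in wild type without dox. In the last list the difference was 24.6 points (17.2 to 31.3), and 9.93 points when the others were weighted to the members' read numbers. All 4 lists held 121 members, and 55 members (24.9%) were in none, where 36.0% of all wild-type NPC sites were in none. Of these 55, 34 were in no mESC list of the female cells either. The one of the 55 with most reads, 100758779 to 100759438 with 882 reads, lies in the run at 100569680, and the next 4, with 845, 680, 541 and 440 reads, lie in the longest run.

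**Figure D5:**
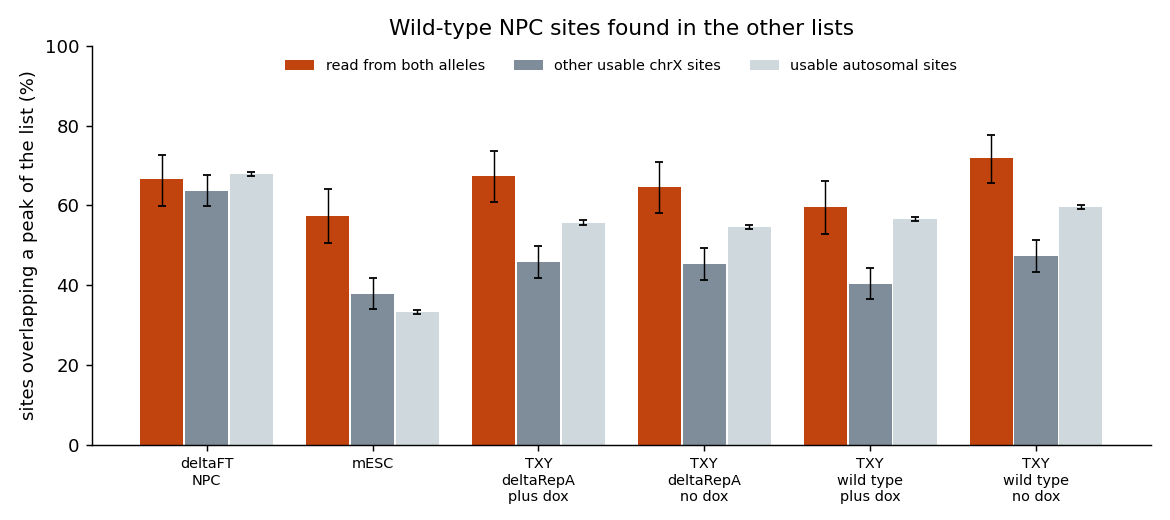
Share of sites of the wild-type NPC list that overlap a peak of each other list by at least 1 bp (y axis, percent), for the 221 members, the 612 other usable chrX sites and 33065 usable autosomal sites; bars carry exact 95% binomial intervals for counting error only. The members stand above the other chrX sites in the mESC list and the 4 TXY lists, and level with them in the deltaFT list.

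With intact Xist, a part of the members was no longer listed after dox. Of the 159 found without dox, 129 (81.1%, 74.2% to 86.9%) were also found with dox, against 244 of 290 other sites (84.1%, 79.4% to 88.1%), a difference of -3.01 points (-10.8 to 4.06). On autosomes 90.4% were kept. The 30 lost members are 18.9%, where 10.2% of all wild-type NPC sites found without dox were lost. Without the A repeat, 136 of 143 members (95.1%, 90.2% to 98.0%) and 261 of 277 others (94.2%) were kept, next to 93.3% on autosomes; the 7 lost members are 4.90%, where 6.98% of all sites were lost. Members that both genotypes had without dox numbered 136, of which 11 (8.09%) were lost in wild type alone and 2 (1.47%) in deltaRepA alone. Of the other chrX sites 21 of 266 (7.89%) and 4 of 266 were, shares close to those of the members, and on autosomes 2.74% and 2.72%. No difference in keeping between members and other chrX sites was detectable in wild type, where the interval allows one of up to 10.8 points. With the others weighted to the members' read numbers this difference was -6.34 points, further from equality but within that interval.

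Loss went with strength in the untreated list. By the authors' −log10 p in the TXY wild-type list without dox, 4 of 14 members from 2 to 5 were kept, 10 of 26 from 5 to 10, 36 of 40 from 10 to 20 and all 79 above 20; for the other sites the numbers were 5 of 18, 17 of 46, 56 of 59 and 166 of 167. A strong peak can become weaker and stay in a list, so presence could not show a loss at the strongest sites. The lost members with the highest values lay at 71613737 to 71614256 (−log10 p 13.3 without dox), 71244249 to 71244874 (12.3), 97792752 to 97793140 (12.3), 133354875 to 133355138 (11.4) and 57757241 to 57757592 (9.85). All 5 had a peak in the deltaRepA list with dox, but those at 71613737 and 71244249 had none in the untreated deltaRepA list. Of all 30 lost members, 11 were in both deltaRepA lists and 8 in the one with dox alone. A further 2 were in the untreated deltaRepA list alone, and 9 were in neither.

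By run, all 11 members of the run at 7274074, all 6 at 7651238 and all 7 of the longest run that were found without dox in TXY wild type were also found with dox. In the run at 100569680 it was 2 of 6, at 131645518 it was 1 of 3 and at 133290043 it was 0 of 2. In deltaRepA these 3 runs kept 3 of 4, 1 of 1 and 2 of 2. These numbers are small, and each list is 1 sample. Members read from both alleles in deltaFT kept their TXY wild-type peak with dox in 23 of 28 cases, and those with under 5% in deltaFT in 56 of 62.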

How the data were processed

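The data were ATAC-seq peak lists. The submitters' processing notes name cutadapt, Bowtie2, MACS2 and the build mm9. Tool versions, duplicate handling, read shift and allele assignment: not given in the sources used here. Female lists deposited by the authors give an unnormalized count of reads for every peak and for each allele. The library and TXY lists deposited by the authors hold a fold enrichment (a ratio) and −log10 p and q values; they were used within a list only. TXY lists come from merged libraries, per the deposited names. Each sample used 50K cells per replicate and paired reads of 75 bp.

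Members and lists were chosen with earlier results of these data known. Sites overlapped by at least 1 bp; for alleles, a peak went to the site of largest overlap. Shares carry exact Clopper-Pearson 95% intervals and differences Newcombe intervals, for counting error only: sites of 1 sample share their source, and without molecular identifiers, reads need not be independent molecules. With 1 sample a group no test between groups was made. Log2 ratios used 0.5 added allelic reads. Named sites are the 12 members with most allelic reads, the 8 with most deltaFT allelic reads of those read from both alleles and of those under 5% there, the 5 with most reads in no mESC, deltaFT or TXY list, the 5 lost with dox in TXY wild type with the highest untreated −log10 p, each run's member with most allelic reads and sites at the limits; some are left out of the text. The other sites of single runs, the 2 uneven in mESC and those in no other list were chosen after their values were seen. No mm9 annotation or genome was used here, so planned gene lists, sequences and motifs were not analysed. Starts are 1-based. Steps were tested on simulated data. Tools were python 3.11.15, numpy 2.4.6, pandas 2.3.3, scipy 1.17.1 and matplotlib 3.10.9.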

Additional observations from a re-analysis of the deposited data

Results flagged for a closer look

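The number of members found with dox minus the number found without dox was 6 in TXY deltaRepA and -27 in TXY wild type. The sign differs between the genotypes, which is why it is listed. With 1 list per condition this difference was not tested. The whole chrX lists held 2442 peaks with dox and 2504 without in deltaRepA, and 1462 with dox and 2377 without in wild type. Over all chromosomes the lists held 142526 with dox and 129055 without in deltaRepA, and 125498 and 139825 in wild type. The signs were the same outside the members. Other usable chrX sites numbered 280 with dox and 277 without in deltaRepA, and 247 and 290 in wild type. Usable autosomal sites numbered 18420 and 18058 in deltaRepA, and 18696 and 19702 in wild type. Of the 78 members not in the untreated deltaRepA list, 13 (16.7%) were found with dox, against 5.67% of the other usable chrX sites and 10.5% of usable autosomal sites. All 13 were also in the untreated wild-type list.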

How the results depend on the processing

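Of 29 alternatives for 15 results, 22 left the value within its 95% interval (counts within 1.5 times) and 7 did not. With the whole interval of the share required within the limits, 140 sites were members. Without neighbours closer than 10 kb, 57.1% of the neighbours of members were members. With 10% asked of each allele, 34.5% of members were read from both alleles in deltaFT. With −log10 q of at least 5, 88.8% of members in deltaRepA were kept with dox. With the other sites weighted to the members' read numbers, the difference between members and others was 3.62 points for mESC peaks, -8.71 points for deltaFT IDR peaks, against 2.79 points unweighted, and 9.93 points for untreated TXY wild type. This last alternative, and letting 2 sites share a peak, were chosen after seeing the data. The cause was not tested. No paired analysis was possible because each group is 1 sample.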

Other observations

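Of the members, 8 (3.62%) were found in no other list of any line, against 8.01% of the other usable chrX sites and 6.37% of usable autosomal sites: 3 with 10 allelic reads each, 3 in the runs at 71491688, 100569680 and 162585429 that had 11, 20 and 27, 1 with 22, at 121223366 to 121223650, and 1 with 81, at 100746613 to 100747048 in the run at 100569680. The last had 296 reads, of which 26 and 55 carried the first-listed and second-listed allele. In the other direction, 101 members (45.7%) had an IDR peak in mESC and both NPC lines and a peak in each TXY list. The shares were 30.2% for the other usable chrX sites and 29.9% for usable autosomal sites. Peaks of the female library lists alone were not counted here, whereas the count of 8 did take them into account.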
